A study of Mus musculus with 9 samples.

Results

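Interferon-stimulated genes were examined in 3 mouse fibroblast lines profiled on Affymetrix arrays, with 3 arrays per line and 9 arrays in all. The list held 38 genes: the transcription factors of the interferon response and the antiviral genes they switch on. A listed gene was taken as measured where the array annotation gave a probe set (the group of oligonucleotides that reads 1 transcript) with that gene as its only symbol. This held for 34 of the 38 genes, at 46 probe sets, out of 12393 genes on the array. Isg15 and Tgtp1 had only probe sets shared with another symbol, and Ifi44 and Xaf1 were not analysed here. A gene is represented by its brightest probe set, the one with the highest mean over the 9 arrays. The others are given where they differ.

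NIH 3T3 is an established mouse embryo fibroblast line, labelled wild type here. SV5 is a stable NIH 3T3 clone with SV40 large T antigen, a viral oncoprotein. SV5 NN4 is a stable clone with both this T antigen and extra wild-type N-ras, a small GTPase. All 3 lines grew in medium with calf serum, and no interferon or virus treatment is named for any of them. Each modified line is 1 clone, so an effect of T antigen or of N-ras cannot be told apart from a difference between clones. Whether a line's arrays stem from independent cultures is not in the labels. The p-values therefore reflect only array-to-array spread, which may be technical.

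Interferons are secreted proteins that warn neighbouring cells of infection. Type I interferons and interferon gamma bind separate receptors on the cell surface, whose Janus kinases activate STAT proteins. These work with IRF factors at DNA motifs named ISRE and GAS to switch on many antiviral genes. Fibroblasts respond to interferon and also keep part of this program active at a low, tonic level without infection. SV40 large T antigen has been reported to raise interferon-stimulated genes in other mouse fibroblasts.

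Arrays with equal replicate numbers were treated as pairs in the main test, because the rule that defined the member list compares them so. The arrays carried a strong replicate effect. Values are log2(intensity + 1), and a difference of 1 is a 2-fold change on that scale. Bacterial control probe sets, which have no target in mouse RNA, read at most 3.66 to 4.25 per array, and the median probe set read 5.93. A gene was called at an adjusted p under 0.05 in limma, with Benjamini-Hochberg adjustment over all 22690 probe sets. In 14 of the 34 members the mean stayed below the median probe set level in every line. Gbp3 lay at the level of the bacterial controls in SV5 NN4, and the dimmer Iigp1 probe set did so in all 3 lines. A change of such dim members would be understated.

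In the comparison of SV5 with NIH 3T3, which asks what differs in the T antigen clone, 0 of 34 members were called by limma. Over all genes 0.0323% were called higher and 0.0161% lower. At an unadjusted p under 0.05, 4 members were higher and 5 lower, where 9.07% and 5.95% of all genes were. The fit without pairing also called 0 members, with 2 at an unadjusted p under 0.05. The median difference of the members was -0.15, against -0.03 over all genes, and 25 of 34 lay below 0 and 9 above, against 55.2% and 44.8% of all genes. That median was -0.06 without NIH 3T3 replicate 1 and -0.09 without SV5 replicate 3. In 7 members all 3 pairs were lower and in 3 all were higher, against 17.3% and 13.4% of all genes. For 26 members the 95% interval lay within 1 log2 unit of 0. For the other members a 2-fold difference lay within the interval.

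In the comparison of SV5 NN4 with SV5, which asks what differs in the clone with added N-ras, 1 member was called. Ifitm3 fell, and 0 members rose, while 0.678% of all genes were called lower and 0.371% higher. At an unadjusted p under 0.05, 4 members were lower and 1 higher, against 7.33% and 7.32% of all genes, and without pairing 2 members (Ifitm3 and Lgals9) passed it. The members had a median of -0.16, against 0.01 over all genes, and 24 lay below 0 and 10 above, against 47.8% and 52.2% of all genes. In 17 of 34 members all 3 pairs were lower, where 20.6% of all genes had such a pattern. In 2 members all pairs were higher, against 22% of all genes. Members are not independent of each other, so these shares are a description.

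Set against NIH 3T3, SV5 NN4 again had Ifitm3 as the only called member, and it was lower. Over all genes 0.686% were called lower and 1.27% higher. The members had a median of -0.26, against -0.03 over all genes, and 28 of 34 lay below 0 and 6 above, against 55.1% and 44.9% of all genes. In 15 members all 3 pairs were lower and in 3 all were higher, against 19.6% and 18% of all genes. At an unadjusted p under 0.05, 11 members were lower, where 8.04% of all genes were, and 1 was higher, against 11.3%. The 11 were Irf7, Ifih1, Oas1a, Trim25, Trim30a, Gbp2, Bst2, Ifitm3, Rsad2, Ifi204 and Sp100, and Ifit2 was the higher one. Without pairing only 2 of these 12, Gbp2 and Ifitm3, passed that threshold. This comparison shares its arrays with both others, so the 3 sets of values are not separate evidence.

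**Figure D1:**
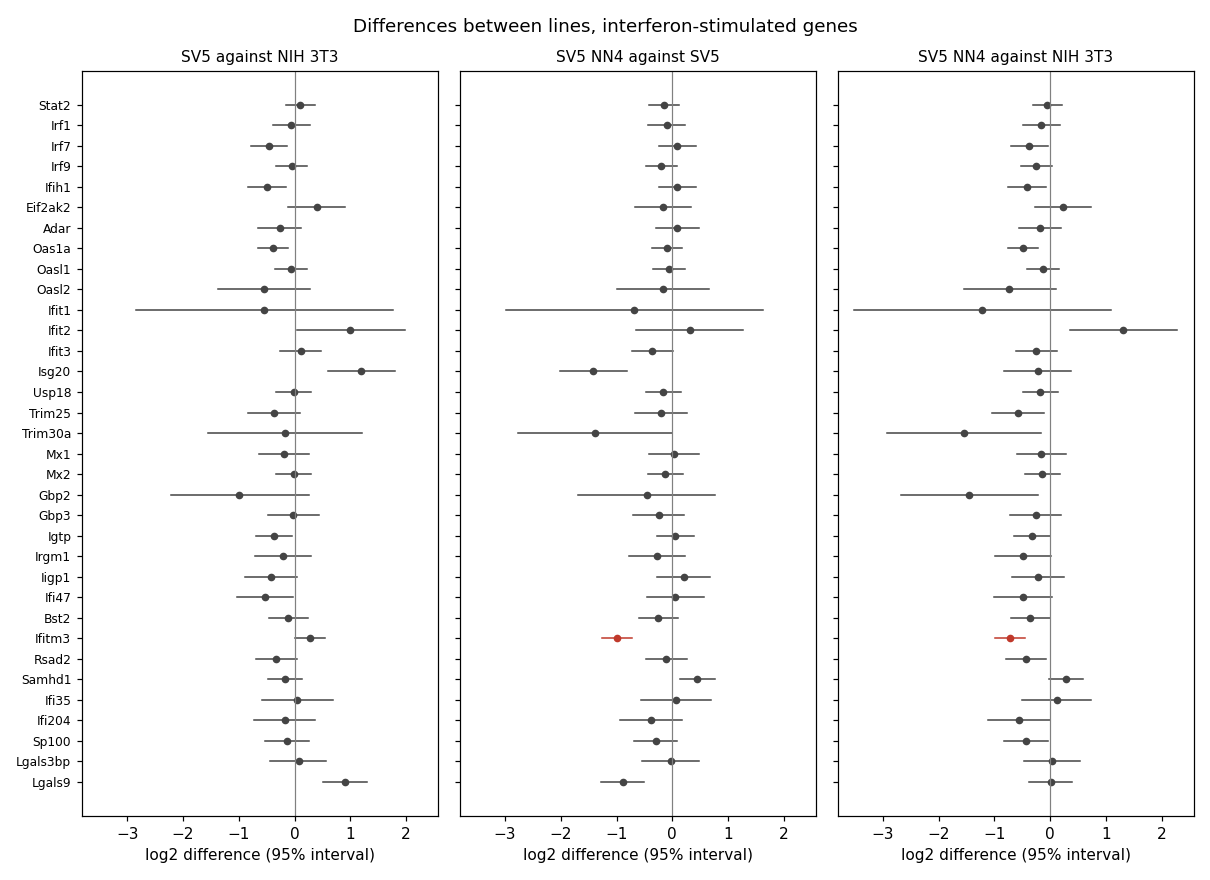
Log2 differences between lines (x axis) with 95% intervals from limma for the 34 measured members (y axis), 1 panel per comparison. Red marks an adjusted p under 0.05, which Ifitm3 alone reached, at -0.99 against SV5 and -0.72 against NIH 3T3.

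Restriction factors act directly on viruses, at membranes or on nucleotides. Ifitm3 encodes a small membrane protein that blocks the entry of enveloped viruses at endosomes. It read 10.64, 11.24 and 10.98 on replicates 1, 2 and 3 of NIH 3T3, 10.94, 11.53 and 11.2 in SV5, and 9.99, 10.41 and 10.3 in SV5 NN4. All 3 SV5 NN4 arrays lay below all 6 arrays of the other lines, while the ranges of SV5 and NIH 3T3 overlapped. Against SV5 it fell by 0.99 (SE 0.11, 95% interval -1.26 to -0.73, 1.99-fold), with an adjusted p of 0.019 in limma and pairs of -0.95, -1.13 and -0.9. Against NIH 3T3 it fell by 0.72 (SE 0.11, interval -0.98 to -0.45, 1.65-fold), with an adjusted p of 0.039 in limma and the same sign in 3 of 3 pairs. SV5 was 0.27 above NIH 3T3 (interval 0.01 to 0.54, adjusted p = 0.34). In bulk RNA, fewer cells with a transcript and less of it per cell cannot be told apart.

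The Ifitm3 calls rest on the pairing and on nearly every array. Without pairing the adjusted p was 0.41 against SV5 and 0.77 against NIH 3T3. The call against SV5 was lost without any of SV5 replicates 1, 2 and 3 or SV5 NN4 replicates 1, 2 and 3 (adjusted p 0.079 to 0.15), with differences of -1.03 to -0.93. The call against NIH 3T3 held only without NIH 3T3 replicate 1, was lost without any other array (adjusted p 0.059 to 0.22), and was lost with only these lines in the fit (0.13) and with an intensity trend (0.072). Ifitm2, a close paralog added after its values were seen, differed by -0.6 between SV5 NN4 and SV5 (adjusted p = 0.25), and Ifitm1 by -0.4 (adjusted p = 0.46). Against NIH 3T3, Ifitm2 differed by 0.18 in SV5 NN4, opposite in sign to Ifitm3, and Ifitm1 by -0.21 (adjusted p = 0.71 and 0.64). Whether the Ifitm3 probe set also reads Ifitm2 transcripts was not examined here.

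The first 30 transcribed bases of Ifitm3 are shown because they hold both motif types of the interferon response. They lie at chr7:141010715-141010744 on the minus strand of GRCm38.p6 and come from RefSeq. Capitals mark the motifs, an ISRE (GAAANNGAAA) from base 3, a GAS (TTCNNNGAA) from base 14 and an ISRE from base 20. The GAS and the ISRE from base 20 overlap.
Ifitm3: agGAAAAGGAAAcTTCTGAGAAACCGAAAc

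Samhd1, an enzyme that breaks down deoxynucleotides and so limits viral DNA synthesis, was the only member of this group with a higher value in SV5 NN4. It read 8.04, 8.34 and 8.5 in SV5 and 8.54, 8.55 and 9.14 in SV5 NN4, without overlap, and 8.12, 8.5 and 8.76 in NIH 3T3. The difference from SV5 was 0.45 (interval 0.14 to 0.76, adjusted p = 0.18), and its other 3 probe sets differed by 0.29, 0.36 and 0.7. Rsad2 (viperin), which makes a chain-terminating nucleotide, read 6.15, 6.45 and 5.67 in NIH 3T3, 5.95, 5.76 and 5.58 in SV5, and 5.91, 5.65 and 5.42 in SV5 NN4. SV5 NN4 was below NIH 3T3 in 3 of 3 pairs, by 0.43 on average (adjusted p = 0.22), but the ranges overlapped, and its dimmer probe sets differed by -0.15 and -0.07. Bst2 (tetherin), which holds budding virus at the cell surface, had means of 5.62, 5.51 and 5.26 in NIH 3T3, SV5 and SV5 NN4, and no difference was called (adjusted p from 0.28 to 0.78). Its SV5 NN4 arrays lay below all SV5 arrays.

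Isg20 and Lgals9 were the members with the lowest unadjusted p-values between SV5 and NIH 3T3, and both stood higher in SV5 than in either other line. Isg20 encodes an exoribonuclease that degrades viral RNA. It read 7.09, 8.82 and 6.83 in NIH 3T3, 9.05, 9.68 and 7.6 in SV5, and 7.57, 8.47 and 6.03 in SV5 NN4. The line ranges overlapped, because the replicate 2 arrays were high and the replicate 3 arrays low in every line. Within pairs SV5 was above NIH 3T3 by 1.96, 0.86 and 0.77 (mean 1.19, SE 0.26, unadjusted p = 0.0022, adjusted p = 0.14). SV5 NN4 was below SV5 by 1.42 on average (pairs of -1.48, -1.2 and -1.57, interval -2.02 to -0.81, adjusted p = 0.064). SV5 NN4 and NIH 3T3 differed by -0.22 (interval -0.83 to 0.38).

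Lgals9 encodes galectin-9, a sugar-binding protein with immune functions. It read 6.39, 6.52 and 6.27 in NIH 3T3, 7.6, 7.12 and 7.16 in SV5, and 6.61, 6.6 and 6 in SV5 NN4. The 3 SV5 arrays lay above all 6 others, which overlapped among themselves. The SV5 difference from NIH 3T3 was 0.91 (interval 0.51 to 1.3, adjusted p = 0.12), with pairs of 1.21, 0.61 and 0.9. That of SV5 NN4 from SV5 was -0.89 (interval -1.28 to -0.5, adjusted p = 0.067), with pairs of -0.99, -0.52 and -1.17. Non-overlapping ranges with SV5 above NIH 3T3 were found in 2.31% of all genes, and with SV5 NN4 below SV5 in 4.32%.

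The differences of Isg20 and Lgals9 between SV5 NN4 and SV5 passed the test in some other fits. With only these lines, Isg20 had an adjusted p of 0.006 and Lgals9 of 0.025, and without NIH 3T3 replicate 1 they had 0.0058 and 0.025. Without NIH 3T3 replicate 3 Isg20 had 0.042. With other single arrays left out the adjusted p reached 0.39 for Isg20 and 0.41 for Lgals9. Over the brighter probe sets Isg20 had an adjusted p of 0.036 in limma. With a gene's mean probe set Isg20 had 0.045 and Lgals9 0.047. The fits that pass leave the differences at -1.42 and -0.89, and alter the estimated spread or the set of probe sets tested.

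Stretches of 120 bases before the transcription start of 4 members are shown, with motifs on either strand in capitals. Isg20 and Lgals9 are shown for their differences around SV5, Trim30a for its low values in SV5 NN4, and Ifit1 as a member with ISREs whose difference rests on 1 array. All come from RefSeq in GRCm38.p6 and are written in the direction of transcription. Isg20 (chr7:78913304-78913423, plus strand) has a GAS from 73 bases before the start. Lgals9 (chr11:78984925-78985044, minus strand) has an ISRE from 55 bases before it. Trim30a (chr7:104465194-104465313, minus strand) has an ISRE from 36 bases before the start. Ifit1 (chr19:34640769-34640888, plus strand) has ISREs from 104 and 85 bases before the start. Further transcripts of Isg20 and Trim30a start elsewhere and are not shown.
Isg20: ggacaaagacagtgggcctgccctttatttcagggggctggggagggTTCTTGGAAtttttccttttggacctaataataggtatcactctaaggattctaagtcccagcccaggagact
Lgals9: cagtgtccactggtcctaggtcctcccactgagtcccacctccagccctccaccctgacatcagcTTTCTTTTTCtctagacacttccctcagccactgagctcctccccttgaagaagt
Trim30a: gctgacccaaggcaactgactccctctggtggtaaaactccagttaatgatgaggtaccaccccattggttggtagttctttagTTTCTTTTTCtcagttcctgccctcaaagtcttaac
Ifit1: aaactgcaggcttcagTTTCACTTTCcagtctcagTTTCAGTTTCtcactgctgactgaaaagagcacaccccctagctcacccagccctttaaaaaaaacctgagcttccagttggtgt

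Over windows from 250 bases before to 50 after the start, 33 of the 38 listed genes had 43 windows in the table. The others were Ifi204, Iigp1, Mx1, Mx2 and Usp18. An ISRE (GAAANNGAAA, either strand) was found in 18 of these windows, or 41.9%, for 17 genes, against 3.44% of all 32851 windows. A GAS (TTCNNNGAA, which is its own reverse complement) was found in 12 windows, or 27.9%, against 8.3%. The motifs overlapped each other in 2 windows. A match says only that the letters are there.

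Among the RNA sensors and RNA-directed effectors, 0 of 10 members were called in any comparison by limma. At an unadjusted p under 0.05, 2 were higher and 2 lower in SV5 than in NIH 3T3, against 9.07% and 5.95% of all genes. In SV5 NN4, 1 was lower than in SV5, against 7.33%, and 1 was higher and 2 lower than in NIH 3T3, against 11.3% and 8.04%. Ifit1, which binds foreign RNA and stops its translation, read 9.38, 6.38 and 5.24 in NIH 3T3, 5.4, 7.58 and 6.4 in SV5, and 5.24, 6.7 and 5.4 in SV5 NN4. Its highest value, on NIH 3T3 replicate 1, stood well apart from the other arrays, and the line ranges overlapped. The difference of SV5 from NIH 3T3 was -0.54 (SE 0.98) and became 1.05 without that array (adjusted p = 0.072). That of SV5 NN4 from NIH 3T3 was -1.22 and became 0.38 (adjusted p = 0.32).

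Ifit2, a related protein, was the only member with a positive difference past an unadjusted p under 0.05 between SV5 NN4 and NIH 3T3. It read 7.97, 5.53 and 7.14 in NIH 3T3, 7.64, 7.12 and 8.9 in SV5, and 8.4, 7.74 and 8.45 in SV5 NN4. The lowest array was NIH 3T3 replicate 2. The line ranges overlapped, and SV5 NN4 was above NIH 3T3 in 3 of 3 pairs, by 1.31 on average (interval 0.35 to 2.28, adjusted p = 0.17). Without NIH 3T3 replicate 1 this difference was 1.87 with an adjusted p of 0.017. With other single arrays left out it ran down to 0.94, with adjusted p up to 0.5. Ifit3 read 6.18 ± 0.68, 6.29 ± 0.89 and 5.93 ± 0.55 (n = 3) in NIH 3T3, SV5 and SV5 NN4. Its replicate 3 arrays were the highest in every line, an order not seen in Ifit1 or Ifit2.

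Oas1a, an enzyme that senses double-stranded RNA and makes the messenger that activates RNase L, had means of 6.68, 6.3 and 6.2 in NIH 3T3, SV5 and SV5 NN4. SV5 NN4 was 0.48 below NIH 3T3 with 3 of 3 pairs in that direction (interval -0.75 to -0.21, adjusted p = 0.094). Ifih1, which encodes the RNA sensor MDA5, had means of 4.44, 3.94 and 4.04, close to the bacterial controls. SV5 lay below NIH 3T3 on all arrays, by 0.5 (adjusted p = 0.2), a pattern seen in 2.27% of all genes. The kinase gene Eif2ak2 (PKR), the editing enzyme Adar and the synthetase relatives Oasl1 and Oasl2 differed by -0.73 to 0.4, with adjusted p from 0.35 to 0.96. The -0.73 was Oasl2 in SV5 NN4 against NIH 3T3, with pairs of -1.7, -0.55 and 0.07. The 0.4 was Eif2ak2 in SV5 against NIH 3T3, where its other probe set differed by -0.28. In the other comparisons too the Eif2ak2 probe sets had opposite signs.

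Of the transcription factors, 0 of 4 were called by limma in any comparison, and 1, Irf7, was lower than in NIH 3T3 at an unadjusted p under 0.05 in both clones. Of all genes, 5.95% were lower at that threshold in SV5 and 8.04% in SV5 NN4. Irf1, a factor induced by interferon gamma, read 8.46, 8.83 and 8.59 in NIH 3T3, 8.65, 8.74 and 8.3 in SV5, and 8.59, 8.6 and 8.2 in SV5 NN4. Its ranges overlapped in all comparisons, and the intervals ran from -0.49 to 0.27. Irf7, which amplifies type I interferon production, had means of 5.62, 5.16 and 5.25, and was 0.46 below NIH 3T3 in SV5 with 3 of 3 pairs in that direction (interval -0.78 to -0.13, adjusted p = 0.23). Stat2 and Irf9, partners in the factor that binds the ISRE, had differences of -0.25 to 0.1 and adjusted p from 0.35 to 0.88. The Stat2 value was identical on 5 arrays, at 5.14, among them 2 of NIH 3T3.

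In the ISG15 conjugation and TRIM group, 0 of 3 measured members were called by limma. In SV5 NN4, 1 was lower than in SV5 and 2 were lower than in NIH 3T3 at an unadjusted p under 0.05, against 7.33% and 8.04% of all genes. Trim30a, a TRIM protein that restrains Toll-like receptor signalling, was low in SV5 NN4 at both of its probe sets, with different patterns over the arrays. At the brightest it read 5.83, 8.41 and 5.9 in NIH 3T3, 5.59, 8.49 and 5.56 in SV5, and 5.43, 5.12 and 4.94 in SV5 NN4. The 3 SV5 NN4 arrays lay below all others, and the replicate 2 arrays of the other lines stood far above the rest. The difference from SV5 was -1.38 (SE 0.59, adjusted p = 0.38), and it was -0.82 without SV5 replicate 2 and -0.45 without SV5 NN4 replicate 2. The difference from NIH 3T3 was -1.55 (adjusted p = 0.24), and -0.61 without SV5 NN4 replicate 2.

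At its other probe set Trim30a read 5.16, 5.16 and 6.88 in NIH 3T3, 5.09, 6.58 and 6.38 in SV5, and 4.54, 4.16 and 4.3 in SV5 NN4. Again no SV5 NN4 array reached those of the other lines. The differences were -1.68 from SV5 (interval -2.73 to -0.63, adjusted p = 0.15) and -1.39 from NIH 3T3 (adjusted p = 0.18). Trim25, a ubiquitin ligase of the RNA sensing pathway, read 9.49, 9.42 and 10.24 in NIH 3T3, 8.95, 9.63 and 9.46 in SV5, and 8.65, 9.11 and 9.66 in SV5 NN4, with overlapping ranges. SV5 NN4 was 0.58 below NIH 3T3 (adjusted p = 0.2) at this probe set but 0.01 above it at another, which was 0.59 higher in SV5 than in NIH 3T3 (adjusted p = 0.3). Usp18, which removes ISG15 and damps receptor signalling, had means of 4.7, 4.68 and 4.52.

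**Figure D2:**
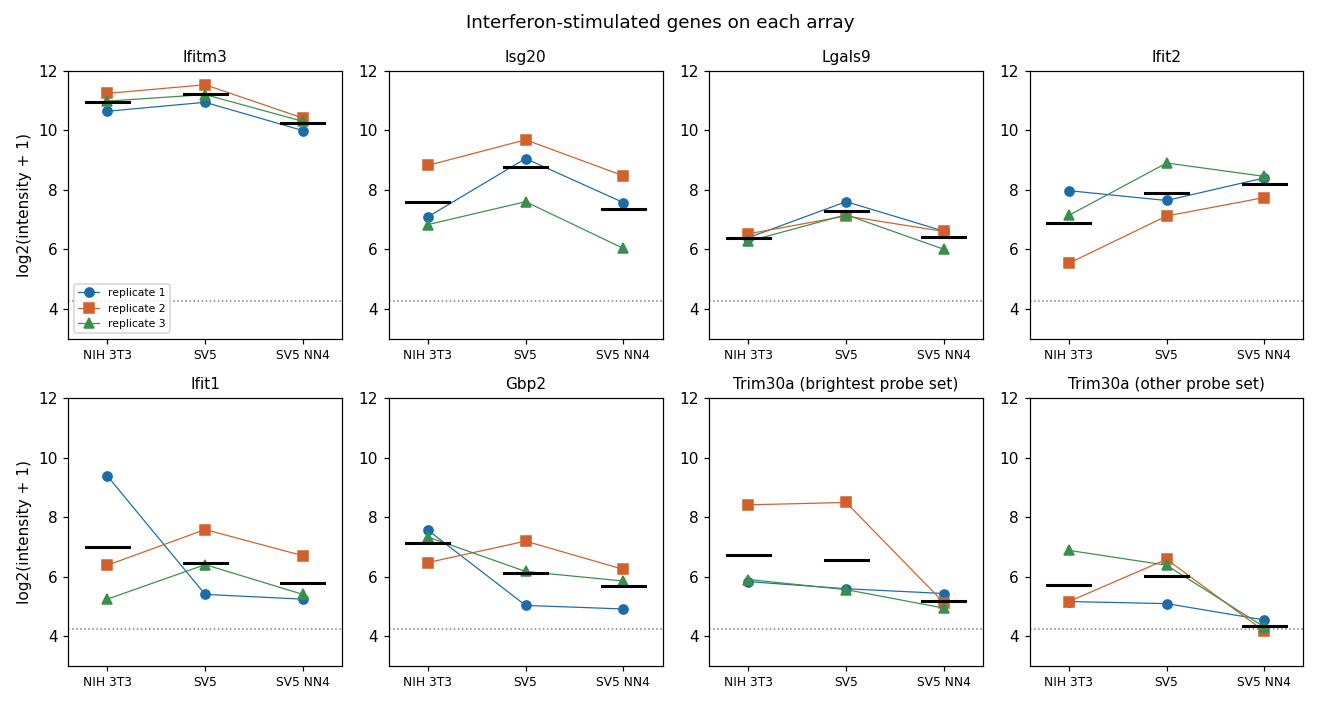
Values of 7 members on each array as log2(intensity + 1) (y axis) by line (x axis), with symbols and thin lines joining equal replicate numbers, black bars for line means and a dotted line at 4.25, the highest bacterial control value. Ifitm3 and both Trim30a probe sets are lowest in SV5 NN4, Isg20 is highest in SV5 within each replicate number and Lgals9 on every SV5 array, and Ifit1 has an isolated high value of 9.38 in NIH 3T3.

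GTPases were listed in separate families, the dynamin-like and guanylate-binding proteins, and the immunity-related GTPases that attack pathogen vacuoles. Of 4 measured members in each family, 0 were called by limma in any comparison. Igtp and Ifi47 in SV5, and Gbp2 in SV5 NN4, were lower than in NIH 3T3 at an unadjusted p under 0.05. Such a fall was found in 5.95% of all genes in SV5 and in 8.04% in SV5 NN4. Gbp2, a guanylate-binding protein, read 7.56, 6.47 and 7.33 in NIH 3T3, 5.03, 7.19 and 6.17 in SV5, and 4.91, 6.24 and 5.85 in SV5 NN4. All SV5 NN4 arrays lay below those of NIH 3T3, by 1.45 on average (interval -2.68 to -0.21, adjusted p = 0.22), and the SV5 arrays overlapped both. That difference was -0.76 without NIH 3T3 replicate 1 and -2.18 without NIH 3T3 replicate 2. The dimmer Gbp2 probe set differed by -0.84 in that comparison (adjusted p = 0.24). Mx1 and Mx2, which trap viral nucleocapsids, had means of 3.97 to 4.16 and 5.71 to 5.85, and Gbp3 of 3.64 to 3.9. These 3 genes differed by -0.26 to 0.03.

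All 4 measured immunity-related GTPases had lower means in SV5 and SV5 NN4 than in NIH 3T3, with a median of -0.39 for SV5 and -0.4 for SV5 NN4. Over all genes 55.2% and 55.1% lay below 0. The group median was uneven over pairs 1, 2 and 3, at -0.81, -0.06 and -0.25 for SV5. For SV5 NN4 it was -0.63, -0.05 and -0.35. Ifi47 read 7.1, 6.76 and 6.53 in NIH 3T3, 6.29, 6.94 and 5.56 in SV5, and 6.53, 6.66 and 5.75 in SV5 NN4. SV5 was 0.53 below NIH 3T3 in mean (interval -1.04 to -0.02, adjusted p = 0.33), but pair 2 was 0.18 above 0 and the ranges overlapped. Irgm1, a regulator of the family and of autophagy, read 7.77, 7.09 and 7.2 in NIH 3T3, 6.96, 7.11 and 7.35 in SV5, and 6.71, 6.99 and 6.91 in SV5 NN4. SV5 NN4 lay below NIH 3T3 on all arrays, with a difference of -0.48 (adjusted p = 0.31), a pattern found in 3.26% of all genes. The difference was -0.19 without NIH 3T3 replicate 1. Between SV5 and NIH 3T3 the Irgm1 pairs were -0.81, 0.03 and 0.15. Igtp (Irgm3) differed by -0.37 between SV5 and NIH 3T3 (adjusted p = 0.29) and Iigp1 by -0.42 (adjusted p = 0.4), with 3 of 3 pairs below 0 for each.

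Among the remaining members, Ifi204, a DNA-binding protein of the p200 family, read 6.88, 6.14 and 6.19 in NIH 3T3, 6.24, 6.23 and 6.19 in SV5, and 5.59, 5.75 and 6.19 in SV5 NN4. The deposited value was the same on all replicate 3 arrays. SV5 NN4 was 0.56 below NIH 3T3 (interval -1.11 to -0.01, adjusted p = 0.28), with overlap only through replicate 3. Ifi35, an interferon-induced leucine zipper protein, read 6, 5.87 and 6.49 in NIH 3T3, 5.96, 6.57 and 5.99 in SV5, and 5.92, 5.94 and 6.85 in SV5 NN4. Its ranges overlapped and the differences were 0.05 to 0.12. Sp100, a nuclear body component, was below NIH 3T3 on all SV5 NN4 arrays, by 0.44 (adjusted p = 0.25). Lgals3bp, a secreted galectin-binding glycoprotein, differed by -0.03 to 0.07.

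The genes that make, receive and relay interferon were examined as a second list, of which 32 of 39 were measured. None was called by limma in any comparison. At an unadjusted p under 0.05, 3 were higher and 2 lower in SV5 than in NIH 3T3, close to the 9.07% and 5.95% of all genes. Between SV5 NN4 and SV5 0 passed, against 7.32% higher and 7.33% lower, and against NIH 3T3 2 were higher and 2 lower in SV5 NN4, where 11.3% and 8.04% of all genes were. The fit without pairing also called 0, with 1, 0 and 1 at an unadjusted p under 0.05. All 9 interferon ligands differed by -0.28 to 0.33, and every one of their intervals lay within 1 log2 unit of 0. Ifna11 lay at the level of the bacterial controls in all 3 lines, and Ifnab, with means of 3.82 to 3.96, lay close to it. A change of such dim ligands would be understated. Ifnb1, the interferon that fibroblasts make first, had means of 5.01, 4.91 and 4.89 in NIH 3T3, SV5 and SV5 NN4. Ifng, made by lymphocytes, had means of 3.76 to 3.86, at the level of the bacterial controls in NIH 3T3 and SV5 but not in SV5 NN4. Ifna1 read 6.7 ± 1.38, 6.47 ± 0.95 and 6.53 ± 0.91 (n = 3), and its differences were -0.24 to 0.06.

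The receptor chains Ifngr1 and Ifngr2 differed by -0.49 and -0.39 between SV5 and NIH 3T3, with adjusted p of 0.47 and 0.23. Jak1, the kinase shared by all interferon receptors, had the largest difference of the relay genes. It read 8.23, 8.44 and 9.18 in NIH 3T3, 9.2, 8.81 and 10.4 in SV5, and 9.71, 9.03 and 10.12 in SV5 NN4. Both clones were above NIH 3T3 in 3 of 3 pairs, though ranges overlapped, by 0.85 in SV5 (interval 0.35 to 1.35, adjusted p = 0.16) and 1 in SV5 NN4 (interval 0.5 to 1.5, adjusted p = 0.073). Its other bright probe set differed by 0.93 and 0.97, and its dim one by -0.16 and -0.19.

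Stat3, a STAT protein shared with other cytokines, was 0.72 higher in SV5 than in NIH 3T3 (adjusted p = 0.23) and 0.51 lower in SV5 NN4 than in SV5 (adjusted p = 0.4), while its other probe sets differed by 0.58 and -0.06 and by -0.59 and 0.08. Mavs, the mitochondrial adaptor of RNA sensing, was 0.85 higher in SV5 and 0.99 higher in SV5 NN4 than in NIH 3T3 (adjusted p = 0.3 and 0.18), with 0.09 and 0.32 at its other probe set. At the bright one no array of either clone overlapped those of NIH 3T3. Tbk1, the kinase downstream of Mavs, differed by 0.26 and 0.28 at its brightest probe set. Its other one differed by 0.95 and 0.61 (adjusted p = 0.11 and 0.094). The feedback inhibitor Socs3 differed by -0.49 and -0.45 (adjusted p = 0.28 and 0.27), but its other probe sets by -0.1 to 0.22 against NIH 3T3. The phosphatase Ptpn2 differed by -0.35 and -0.26, but by 0.24 and -0.09 at its next brightest probe set.

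**Figure D3:**
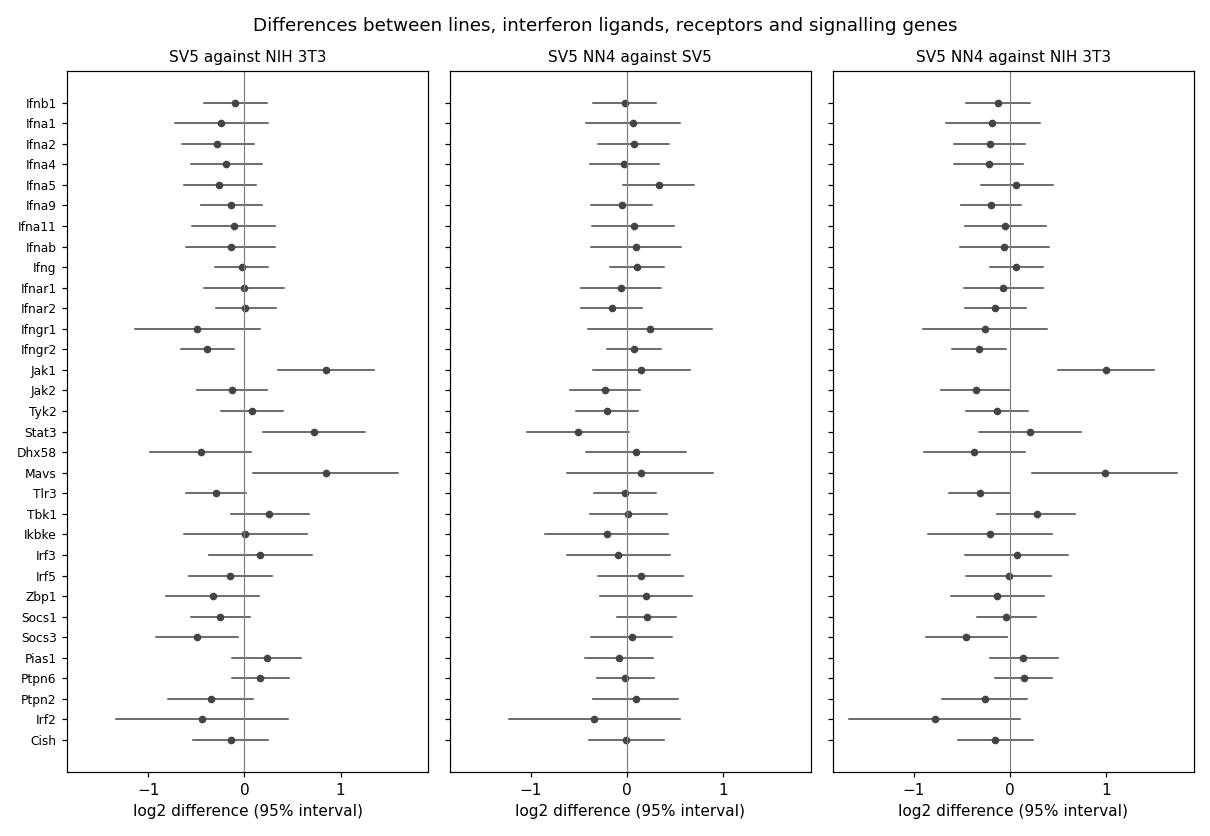
Log2 differences between lines (x axis) with 95% intervals from limma for the 32 measured genes of interferon production, reception and relay (y axis), 1 panel per comparison. No gene reached an adjusted p under 0.05, and Jak1 and Mavs lie farthest above 0 in the panels against NIH 3T3.

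The labelled cell type was checked on marker genes. All 10 fibroblast markers were measured, and Col3a1 and Vim were among the bright ones, with Col3a1 at 11.37 to 12.42 per line mean. Fap was dim, with line means of 3.98 to 4.19, close to the bacterial controls. The leukocyte and macrophage markers, 10 of 11 measured, had 0 calls by limma. At an unadjusted p under 0.05 at most 1 passed per direction and comparison, against 5.95% to 11.3% of all genes. Their intensities summed to 427 to 650 in NIH 3T3, 436 to 524 in SV5 and 507 to 547 in SV5 NN4. Ptprc, the pan-leukocyte marker, had means of 3.76 to 3.97, close to the bacterial controls. Csf1r, Cd14, Cd3e and Lyz2 were not that low, with line means of 5.97 to 6.84, above the median probe set level. The 5 endothelial and 5 epithelial markers had 0 calls by limma. Of the 10 fibroblast markers, 3 were called lower and 0 higher between SV5 NN4 and SV5, the comparison with the larger Ifitm3 difference, against 0.678% and 0.371% of all genes. Pdgfra, Col3a1 and Thy1 fell from SV5 to SV5 NN4 by 2.1, 1.05 and 1.39 (adjusted p = 0.0032, 0.034 and 0.0056 in limma). Without pairing only Thy1 passed, with adjusted p of 0.17, 0.31 and 0.023 in that order. Col1a1, Fn1, Pdgfrb and Col1a2 were not called but differed by -1.49, -1.32, -0.64 and -0.41, with 3 of 3 pairs below 0 for each. The dimmer Col1a1 probe set differed by -0.1. At an unadjusted p under 0.05 in limma, 7 of the 10 markers were lower and 0 higher, against 7.33% and 7.32% of all genes. Without pairing 4 passed that threshold. Vim, S100a4 and the dim Fap differed by 0.01, -0.09 and 0.16. Against NIH 3T3, where Ifitm3 was also called, 2 fibroblast markers were called lower and 0 higher in SV5 NN4. Over all genes these shares were 0.686% and 1.27%. Pdgfra differed by -1.2 and Thy1 by -2.09 (adjusted p = 0.022 and 0.0018 in limma, 0.66 and 0.0014 without pairing). The summed fibroblast marker intensity was 38484 to 58889 in SV5 and 23817 to 37773 in SV5 NN4. In NIH 3T3 it was 25957 to 51187. The part of this in the Ifitm3 result was not tested.

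RNA integrity also varied over the arrays, with line ranges that overlapped. The log2 ratio of the 3' to the 5' probe set of Actb, which rises as RNA degrades, was 4.26 to 5.07 in NIH 3T3, 2.42 to 4.33 in SV5 and 3.66 to 4.63 in SV5 NN4. In Gapdh it was 2.65 to 5.22, 2.36 to 3.03 and 2.66 to 3.53, where the 5.22 was NIH 3T3 replicate 3 alone. No array read below 2.36 in either ratio, so the 3' probe set stood well above the 5' one on all of them. SV5 NN4 was above SV5 in every pair for both genes. Its part in the member differences was not tested.

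The members varied less by replicate number and more by line than genes at large. Replicate number held a median of 42.6% of a member's variance over the 9 arrays and line 27.4%, against 60.4% and 14.9% over all genes. Replicate number outweighed line in 25 of 34 members and in 80% of all genes. Line dominated in Lgals9, with 79.3%, and in Ifitm3, with 77.8%. Replicate number dominated in Usp18, with 92%, Ifit3, with 89.7%, Mx2, with 88.8%, Oasl1, with 82.8%, and Irf9, with 80.5%. In 11 members the replicate 3 array was the lowest in every line, and in 7 the replicate 2 array was the highest. The share of all genes with these orders was not computed, so the counts do not set the members apart. An exact repeat of a deposited value on 2 or more arrays occurred in 11 of 34 members and in 27.8% of all genes, which makes the spread of genes such as Stat2 look smaller than it may be.

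**Figure D4:**
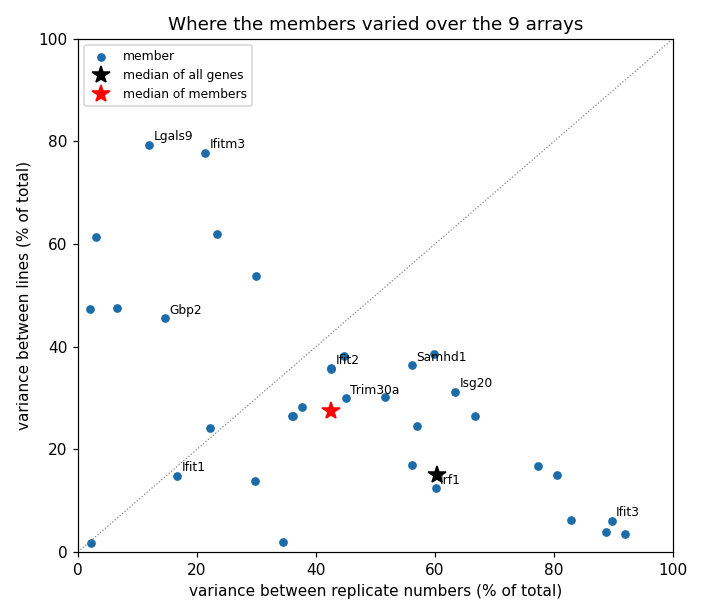
Share of each member's variance over the 9 arrays between replicate numbers (x axis, %) and between lines (y axis, %), 1 dot per member, with red and black stars for the medians of members and of all genes. Ifitm3 and Lgals9 lie at the top left, with 77.8% and 79.3% between lines, while Ifit3 lies at the lower right with 89.7% between replicate numbers.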

How the data were processed

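Expression was measured on 9 Affymetrix arrays, 3 each of NIH 3T3, SV5 and SV5 NN4. The deposited values are linear intensities per probe set, and RMA is named in the submitters' processing notes, with no version or settings. Medians were 56.2 to 62.35 and upper quartiles 165.2 to 239.7 per array, so the deposited arrays do not share 1 distribution. The number of arrays limits the precision.

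From the deposited intensities, log2(value + 1) was computed and fitted in limma 3.58.1 (R 4.3.3) with line and replicate number as terms on all 9 arrays, eBayes and Benjamini-Hochberg adjustment over 22690 probe sets. Gene names come from the platform annotation, in which 20393 probe sets had 1 symbol, 691 several and 1606 none. The pairing was set by the rule that defined the member list. After subtracting line means, all 9 equal-numbered pairs of arrays correlated at r from 0.26 to 0.84 over probe sets, and the other 18 at -0.73 to 0.11. The deviations of each line sum to 0, so the low values of the other pairs are partly built in. The members, the lists and the pairing were chosen with earlier results of these data known.

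Array values are given in each role group for called members and up to 3 with the largest difference whose higher line mean reached 5.93; all others by means, ranges or counts. Of the pathway list, called genes and up to 2 per role are named by that rule. Ifnb1, Ifng, Ifna11, Ifnab, the second Tbk1 probe set, Ifitm1 and Ifitm2 were added with their values known. The limma code was first tested on simulated data. Alternatives were the fit without pairing, only the lines compared, each array left out, a pseudocount of 16, median centring, quantile normalization, brighter probe sets only, a gene's mean probe set and an intensity trend. Promoters are from RefSeq tables of GRCm38.p6; no genome was used.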

Additional observations from a re-analysis of the deposited data

How the results depend on the processing

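Under the 8 other settings, 0 members were called between SV5 and NIH 3T3, and 0 to 3 between SV5 NN4 and SV5. Without the replicate block that count was 0, with only the lines compared 3 (Ifitm3, Isg20 and Lgals9), over the brighter probe sets 2 and with a gene's mean probe set 3. Against NIH 3T3, SV5 NN4 had 0 called members without the replicate block, with only these lines and with an intensity trend. Leaving out single arrays gave 0, 0 to 3 and 0 to 2 calls in these comparisons. The median of the members between SV5 NN4 and SV5 was -0.1 with a pseudocount of 16, -0.14 with centring or quantile normalization, -0.2 over brighter probe sets (where Rsad2 has no value) and -0.11 with a gene's mean probe set, and -0.16 to -0.11 with single arrays left out. Between SV5 and NIH 3T3 it was -0.16 to -0.07 under the other settings, lowest in size over brighter probe sets, and -0.18 to -0.06 with single arrays left out. Against NIH 3T3 in SV5 NN4 the latter range was -0.35 to -0.24. The alternatives were run gene by gene for the 15 members with array values. Among them, outside the fits with an array left out, signs turned in 2 cases: Trim30a was 0.06 between SV5 and NIH 3T3 with its mean probe set, and Ifi35 -0.02 between SV5 NN4 and SV5 after quantile normalization. With single arrays left out, signs turned between SV5 and NIH 3T3 for Irf1 (-0.2 to 0.05), Ifit1 (-1.36 to 1.05), Trim30a (-0.72 to 0.21), Irgm1 (-0.37 to 0.08), Ifi204 (-0.37 to 0.11) and Ifi35 (-0.28 to 0.39). They turned between SV5 NN4 and SV5 for Ifit2 (-0.14 to 0.69), Trim25 (-0.41 to 0.02), Gbp2 (-0.94 to 0.09), Ifi47 (-0.1 to 0.31) and Ifi35 (-0.28 to 0.4), and between SV5 NN4 and NIH 3T3 for Isg20 (-0.59 to 0.03), Ifit1 (-2.04 to 0.38), Lgals9 (-0.12 to 0.15) and Ifi35 (-0.14 to 0.3). The causes were not tested, beyond the smaller number of arrays or probe sets in those fits. With 3 arrays per line, and with 14 members below the median probe set level in every line, small changes of dim members may be missed.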
